A study of Mus musculus with 18 samples.

Results

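The genes described here encode the proteins of the cytosolic ribosome. They were taken as the protein-coding genes whose symbols begin with Rpl or Rps and a number, together with Rplp0, Rplp1, Rplp2 and Rpsa. Left out were the S6 kinases (Rps6k), symbols containing -ps, which marks processed copies, and Rps3a3 by name. Rps27rt and Rpl37rt, described as a retrogene and as retrotransposed, were kept. The rule gave 88 of the 45777 genes measured, of which 21949 were protein-coding. By symbol, 51 belong to the large subunit, 33 to the small subunit and 3 (Rplp0, Rplp1 and Rplp2) to the stalk of the large subunit. Rps19bp1 met the naming rule but encodes a binding partner of Rps19 and not a subunit.

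RNA was sequenced from mouse bone marrow-derived mast cells (BMMC), which are grown from marrow in culture. All cells carried the Sirt6 flox/flox allele, and the KO cells carried LysM-Cre in addition, a Cre recombinase under the control of the promoter of lysozyme M, a myeloid gene. WT therefore means Sirt6 flox/flox without that Cre. Sirt6 encodes a nuclear NAD-dependent deacetylase, and the comparison of genotypes asks which transcripts differ when it is deficient. The labels give 3 levels with no unit: 0 with no treatment, and 20 and 60 with LPS, a ligand of the receptor TLR4, while the title of the series names FcεRI, the IgE receptor. Each of the 6 groups of genotype and level held 3 libraries, numbered 4120, 414 and 6110 in every group. The libraries of 1 number and 1 genotype are called a culture below. The labels do not state that the numbers are separate cultures or animals, and the p-values below therefore reflect the spread among these samples alone, which may be technical.

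The ribosome is assembled in the nucleolus from ribosomal RNA and about equal parts of each ribosomal protein, and then exported to the cytosol, where it makes protein. The small subunit decodes the messenger RNA and the large subunit joins the amino acids, while the acidic stalk proteins recruit the translation factors. Ribosomal protein transcripts are among the most abundant of a growing cell, and their translation is controlled through a pyrimidine tract at the start of the transcript. Their genes have left many processed copies in mammalian genomes, which are reverse-transcribed transcripts without introns, and reads from a gene and a near-identical copy can be hard to separate. Sirt6 is known as a repressor of ribosomal protein genes that acts together with the transcription factor Myc.

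The libraries held between 20026054 and 42265435 counts, and 3 counts in the smallest library were 0.185 CPM (counts scaled to TMM library sizes). All 11 mast cell markers were measured, with a summed level of 15820 to 46791 CPM at level 0 in WT and 24630 to 36283 CPM at level 0 in KO. The 10 neutrophil and granulocyte precursor markers summed to 0.305 to 4.31 CPM in WT and to 7.75 to 27.2 CPM in KO at 20, and 6 of the 9 that were tested were higher in KO over all levels. So were 2 of 3 basophil markers, 1 of 4 tested macrophage and monocyte markers and 1 of 11 mast cell markers (Kit), and the part of such cells in the results below was not tested. Sirt6 itself was counted at 13.3 ± 2.27 CPM in WT and 15.2 ± 2.17 CPM in KO (SD, n = 3 cultures). Its difference was 0.18 on the log2 scale (SE 0.127, adjusted p = 0.343, edgeR's quasi-likelihood test with Benjamini-Hochberg adjustment). Sirt6 was thus not lower in KO, and the reason was not tested. The counts are of the whole gene and not of its deleted part, so they do not check the labels. In bulk samples, fewer cells of a type and less RNA per cell cannot be told apart.

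The ribosomal protein genes together took 2.66% to 7.67% of the counts of a library. In WT the share was 4.35% ± 2.13 at 0, 4.32% ± 1.02 at 20 and 4.74% ± 1.60 at 60 (SD, n = 3). The KO libraries had shares of 5.37% ± 0.472, 6.36% ± 1.18 and 5.86% ± 0.465 at these levels. The means were higher in KO at every level. The groups did not overlap at 20, where the lowest KO library stood at 5.38% and the highest WT library at 5.32%, and they overlapped at 0 and 60. At 0 the WT libraries gave 2.66%, 3.64% and 6.75% for numbers 4120, 414 and 6110, and the KO libraries gave 5.22%, 5.90% and 4.99%. The WT library of number 6110 was thus above every KO library at that level.

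**Figure D1:**
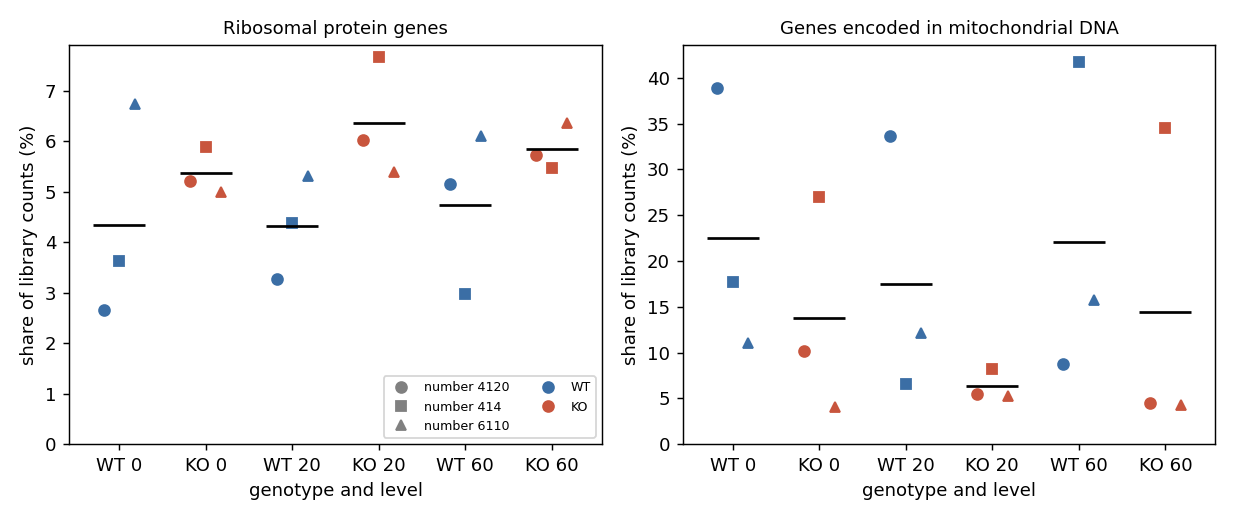
Share of library counts (%) of the 88 ribosomal protein genes (left) and of the 15 genes encoded in mitochondrial DNA (right), by genotype and level. Each point is 1 library, its shape gives the replicate number, and the black line is the mean of 3 libraries. The WT library of number 6110 at level 0 had a ribosomal share of 6.75%, against 2.66% and 3.64% in the other WT libraries at that level.

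The genes encoded in mitochondrial DNA took 4.07% to 41.7% of the counts. The highest mitochondrial shares stood beside the lowest ribosomal ones in WT: 38.9% at 0 in number 4120, where the ribosomal share was 2.66%, and 41.7% at 60 in number 414, where it was 2.97%. In KO, number 414 had the highest mitochondrial share of each level. At 0 and 20 (27.0% and 8.17%) its ribosomal shares of 5.90% and 7.67% were the highest in KO. At 60 (34.5%) its ribosomal share of 5.47% was the lowest. With the mitochondrial genes left out of the total, the ribosomal share ran from 4.36% to 8.35%, and the genotypes then overlapped at every level, at 20 with 6.05% in the highest WT and 5.68% in the lowest KO library. The part of the mitochondrial share in the differences below was not tested.

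Levels were compared between genes in TPM, which is scaled to transcript length. Rplp1, a stalk protein, had the highest median over the 18 libraries at 6074 TPM, with a range of 1338 to 9310. It was followed by Rpl10 of the large subunit at 4005 TPM, Rps14 at 3529 TPM, Rps12 at 3256 TPM and Rpl41, the shortest of the ribosomal proteins, at 3222 TPM. The ranges of these 5 genes overlapped. At the other end Rpl10l was at 0 counts in all 18 libraries, Rpl3l had a median of 0.185 TPM, Rpl39l of 0.345 TPM, Rpl32l of 0.881 TPM and Rps27rt of 21.5 TPM. Rpl10l was the only gene of the 88 that failed the filter on low counts, so 87 were tested.

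**Figure D2:**
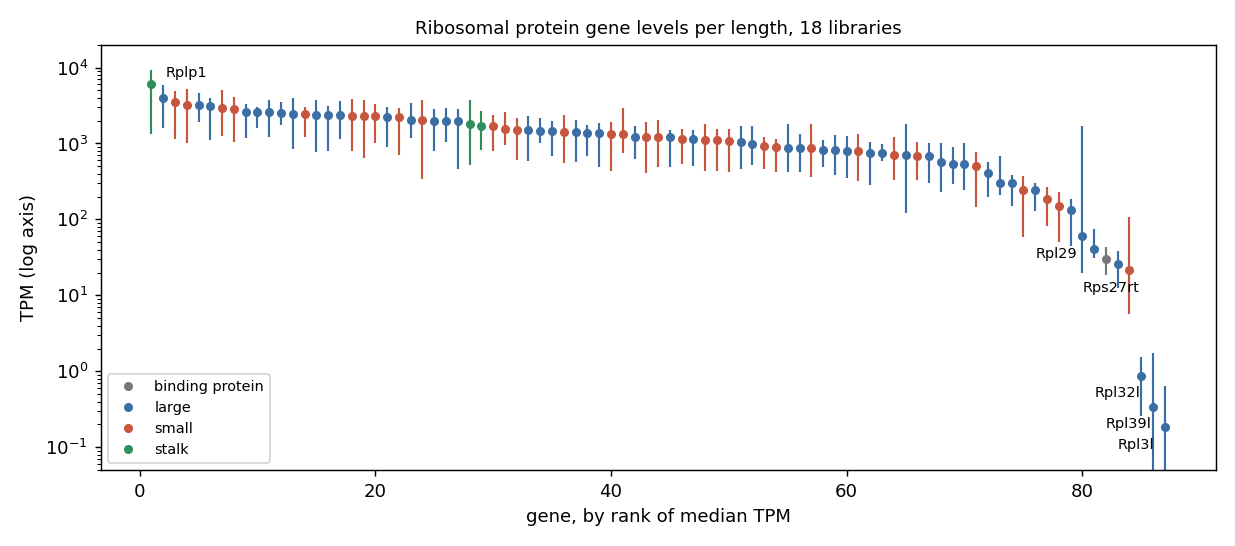
Level of each ribosomal protein gene in TPM (log axis), ranked by its median over 18 libraries, with the range over libraries as a line that is drawn no lower than 0.05 TPM. Rpl10l, at 0, is not drawn. Rplp1 had the highest median at 6074 TPM, and Rpl29, at a median of 59.9 TPM, had a range of 19.8 to 1695 TPM.

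Several genes have a close paralog, and in each pair the paralog had the lower median. Rpl3 stood at 539 TPM against 0.185 for Rpl3l, which is known from muscle. Rpl7 stood at 1223 TPM against 25.6 for Rpl7l1, and Rpl22 at 299 TPM against 133 for Rpl22l1. Rpl36a stood at 1366 TPM against 409 for Rpl36al. Rpl39 stood at 1955 TPM against 0.345 for Rpl39l, and Rps27 at 2806 TPM against 245 for Rps27l and 21.5 for Rps27rt. Rps4x, which is encoded on the X chromosome, had a median of 1315 TPM, and Rps19bp1 one of 30.6 TPM. Reads may be split between such pairs, so the lower values are uncertain.

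The genes varied together. The first principal component of their log2 CPM held 55.9% of the variance of the 87 genes over 18 libraries. Pearson's r with the median of the other members was above 0.8 for 53 of the 87 genes, as a description of libraries that come from 6 cultures. Neither value is given for other sets of genes. The median SD of log2 CPM over libraries was 0.451 for the 87 genes and 0.485 for all genes tested. Among the closest to the median were Rpl19 (r = 0.967), Rps7 (0.964) and Rpl13 (0.960). The farthest, by the SD around the median member on the log2 scale, were Rpl29 (1.92), Rpl3l (1.48), Rpl39l (1.33), Rps27rt (0.919), Rpl34 (0.862), Rps2 (0.805), Rps18 (0.689) and Rpl35a (0.641). Rpl19, a large subunit protein, was counted at 731 ± 285 CPM in WT and 790.0 ± 189 CPM in KO at 0, at 781 ± 146 and 988 ± 269 CPM at 20, and at 877 ± 253 and 1071 ± 191 CPM at 60 (SD, n = 3).

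Since these genes moved together across libraries, their promoters were read from RefSeq for GRCm38.p6, in which 68 of the 88 matched. The 100 bases before the start site are shown for 2 genes close to the median member, Rpl19 on chromosome 11 (98026610 to 98026709, plus strand) and Rps7 on chromosome 12 (28635954 to 28636053, minus strand). Capitals mark the motif CCGGAAG of the ETS factor GABP on either strand and, in Rpl19, the E-box CACGTG. These 2 genes are examples that hold CCGGAAG, which most of the matched promoters lack. Rpl18, Rps3 and Rps16, also close to the median member, held neither motif in the same stretch.
Rpl19: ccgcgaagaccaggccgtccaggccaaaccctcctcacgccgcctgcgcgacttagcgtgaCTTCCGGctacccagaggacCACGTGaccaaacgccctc
Rps7: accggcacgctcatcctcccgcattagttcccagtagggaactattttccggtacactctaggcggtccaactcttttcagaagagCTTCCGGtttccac

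In the 250 bases before the start site, on both strands, CCGGAAG stood in 27.9% of the 68 ribosomal promoters and in 7.83% of 27025 genes. The E-box CACGTG, which Myc can bind, stood in 7.35% against 6.86%. GGGCGG, the letters of SP1, stood in 50% against 35.4%, and AAGATGG, of YY1, in 7.35% against 5.18%. TGCGCA, a part of the NRF1 motif, stood in 13.2% against 7.36%, and TATAAA in 7.35% against 14.3%. CACGTG and CCGGAAG share no stretch in Rpl19, and these 6 motifs were all that were searched. A match of letters is not a measured binding site.

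At single levels, no ribosomal protein gene passed the test between KO and WT. In edgeR, 0 of 87 had an adjusted p under 0.05 at 0, at 20 and at 60, against 0.274%, 0.21% and 0.268% of all 17159 genes tested. At an unadjusted p under 0.05 there were 3, 8 and 7 genes, against 12.1%, 7.79% and 10.7% of all genes. DESeq2 called Rps3a1 and Rpl29 at 0, Rps3a1 at 20, and Rps3a1 and Rpl29 at 60. The estimates lay above 0 for 66, 76 and 75 of the 87 genes, against 50.5%, 48.3% and 52% of all genes, with medians of 0.20, 0.40 and 0.30 on the log2 scale. The medians of all genes were 0.0062, −0.020 and 0.023. KO and WT did not overlap, with KO higher, for 14 genes (16.1%) at 20 against 8.35% of all genes, and for 13 (14.9%) at 60 against 7.34%. At 0 they were apart with KO higher for Rps3a1 alone, and with KO lower for Rpl35a alone. The share of all genes is not given for that level, so these genes cannot be read as few or many.

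The direction of the group depended on the replicate number. The labels do not state that KO and WT of 1 number are matched. By the correlations described under processing, the numbers paired the genotypes at 60 and not at 0 or 20. In number 414 the KO library was above the WT library for 84, 84 and 83 of 87 genes at 0, 20 and 60, with median differences of 1.00, 0.93 and 0.88 on the log2 scale. In number 4120 it was above for 72, 70 and 64, with medians of 0.35, 0.42 and 0.15. In number 6110 it was above for 9, 22 and 38, with medians of −0.70, −0.19 and −0.063. The opposite sign in number 6110 was largest at 0, where the WT library had the ribosomal share of 6.75% given above. Without that library the median difference at 0 was 0.68 in place of 0.20. Without number 414 it was −0.21, and it was −0.0050 without the WT library and −0.037 without the KO library of that number alone. At 20 the median was 0.18 without the KO library of number 414 and 0.61 without the WT library of number 6110, and at 60 it was 0.14 without the WT library of number 414 and 0.58 without that of number 6110. Without all of number 414 the medians at 20 and 60 were 0.11 and 0.027, with 57 and 48 of 87 above 0, and without all of number 6110 they were 0.72 and 0.51.

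**Figure D3:**
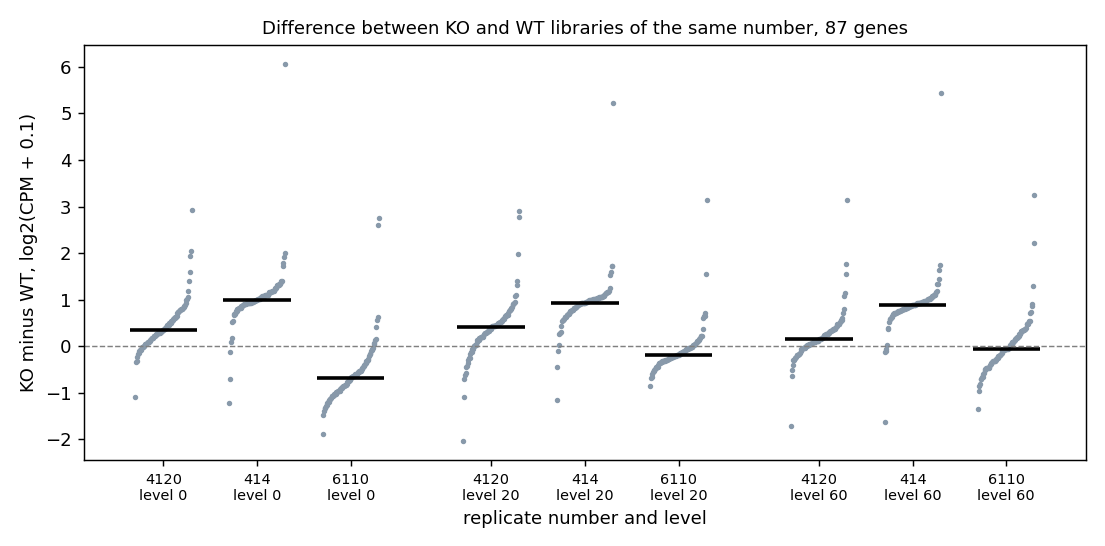
Difference between the KO and the WT library of the same replicate number and level, as the difference of log2(CPM + 0.1), for the 87 tested ribosomal protein genes. Each point is 1 gene and the black lines are medians, which lie near 1 in number 414 at all levels and below 0 in number 6110.

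Over all levels, 5 of 87 genes (5.75%) passed the test between KO and WT, against 10.9% of all genes. Higher in KO were Rps3a1, Rpl29, Rpl34 and Rpl3 (4.6% against 4.29% of all genes), and lower was Rpl35a (1.15% against 6.62%). This test treats the 3 libraries of a culture as separate samples. With counts summed per culture edgeR called 0 of 87, and with the culture as a random effect limma-voom called 1, Rps3a1. The replicate number as a replicate block gave 17 calls, and DESeq2 gave 16. Without the WT library of number 6110 at 0 there were 32 calls, without all of number 6110 there were 35, without number 4120 there were 3, and without number 414 there was 1. The median log2 difference of the 87 genes was 0.29 with 74 above 0 (50.5% of all genes were), against a median of 0.0053 for all genes, and without number 414 it was −0.056. The median was 0.25 for large and 0.35 for small subunit genes. At an unadjusted p under 0.05 there were 28 genes (32.2%), against 30% of all genes.

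Rps3a1 encodes eS1, a small subunit protein near the exit channel of the messenger RNA. At 0 it was counted at 334, 234 and 487 CPM in the WT libraries of numbers 4120, 414 and 6110 and at 583, 880 and 644 CPM in the KO libraries. At 20 the WT libraries gave 375, 331 and 412 CPM and the KO libraries 805, 1000.0 and 670 CPM. At 60 they gave 447, 413 and 517 CPM in WT and 775, 1128 and 942 CPM in KO. All KO libraries were above all WT libraries, at each level and over the levels. Per culture it was 394 ± 73.5 CPM in WT and 825 ± 155 CPM in KO (SD, n = 3). The difference over all levels was 1.06 on the log2 scale (SE 0.155, adjusted p = 0.00080 in edgeR with Benjamini-Hochberg adjustment). A two-sided exact permutation test of 3 against 3 libraries had p = 0.1 at 0, 20 and 60, which is its lower limit.

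Rpl29 encodes a large subunit protein that is not essential in mice. In WT it ran from 13.2 to 32.8 CPM over the 9 libraries. In KO, number 4120 gave 22.0, 29.0 and 29.5 CPM at 0, 20 and 60, within the WT range. Number 414 gave 893, 789 and 922 CPM, and number 6110 gave 199, 241 and 315 CPM. The KO cultures therefore stood at 26.8, 868 and 251 CPM, against 20.5, 18.5 and 30.9 CPM in WT. The high level was thus seen at all 3 levels in KO of numbers 414 and 6110 and not in KO of number 4120. The difference was 4.04 on the log2 scale (SE 0.736, adjusted p = 0.0043 in edgeR with Benjamini-Hochberg adjustment). Without number 414 it was 2.43 with an adjusted p of 0.117, and with the culture as a random effect it was 3.02 with an adjusted p of 0.0834. Within 1 Mb of Rpl29, 6 of 31 tested genes were called, against 10.9% of all genes. Within 1 Mb of Rpl34, Rpl3, Rps3a1 and Rpl35a the counts were 4 of 12, 7 of 41, 1 of 10 and 1 of 27.

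Rpl34 encodes a large subunit protein. At 0 the WT libraries of numbers 4120, 414 and 6110 gave 51.9, 107 and 224 CPM and the KO libraries 213, 277 and 330 CPM. At 20 they gave 58.8, 156 and 191 CPM in WT and 401, 519 and 291 CPM in KO, and at 60 they gave 44.0, 169 and 221 CPM in WT and 391, 424 and 545 CPM in KO. The groups overlapped at 0 and were apart at 20 and 60. The WT libraries of number 4120 were the lowest at every level. The difference was 1.44 (SE 0.324, adjusted p = 0.0135 in edgeR with Benjamini-Hochberg adjustment), and the adjusted p was 0.139 without number 414 and 0.0587 with the culture as a random effect.

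Rpl3 encodes a large subunit protein close to the peptidyl transferase centre. Its culture means were 363, 323 and 452 CPM in WT and 534, 628 and 568 CPM in KO for numbers 4120, 414 and 6110. At 0 the libraries overlapped, with 281, 218 and 467 CPM in WT and 346, 461 and 491 CPM in KO. At 20 and 60 every KO library was above every WT library, the closest being the libraries of number 6110 at 20, with 460 CPM for KO and 428 CPM for WT. The difference was 0.59 (SE 0.160, adjusted p = 0.0295 in edgeR with Benjamini-Hochberg adjustment), and the adjusted p was 0.101 on deposited TPM and 0.0985 with the mitochondrial share as a covariate. The call was also lost without any single one of 9 libraries, at adjusted p from 0.0513 to 0.0729: the WT libraries of number 4120 at 0 and 20 and of number 414 at 0 and 60, and the KO libraries of number 4120 at 20, of number 414 at 0 and 20 and of number 6110 at 0 and 60. Next in order, and not called, was Rps4x at 0.58 (adjusted p = 0.0531 in edgeR, 0.0162 in DESeq2 and 0.0415 with the replicate block).

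Rpl35a encodes a large subunit protein and was the only 1 of the 5 that was lower in KO. At 0 the WT libraries gave 102, 89.5 and 119 CPM and the KO libraries 47.3, 81.8 and 63.1 CPM. At 20 they gave 119, 111 and 102 CPM in WT and 55.9, 81.4 and 83.0 CPM in KO, and at 60 they gave 165, 102 and 123 CPM in WT and 49.97, 97.6 and 103 CPM in KO. The groups were apart at 0 and 20 and overlapped at 60. The difference was −0.64 (SE 0.159, adjusted p = 0.0202 in edgeR with Benjamini-Hochberg adjustment). It missed the threshold on deposited TPM, at −0.49 with an adjusted p of 0.222, and with library size alone as scaling, at −0.57 with an adjusted p of 0.0694. It was −0.35 without number 4120 (adjusted p = 0.191 in edgeR), −0.85 without number 414 (0.0720) and −0.72 without number 6110 (0.0732).

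**Figure D4:**
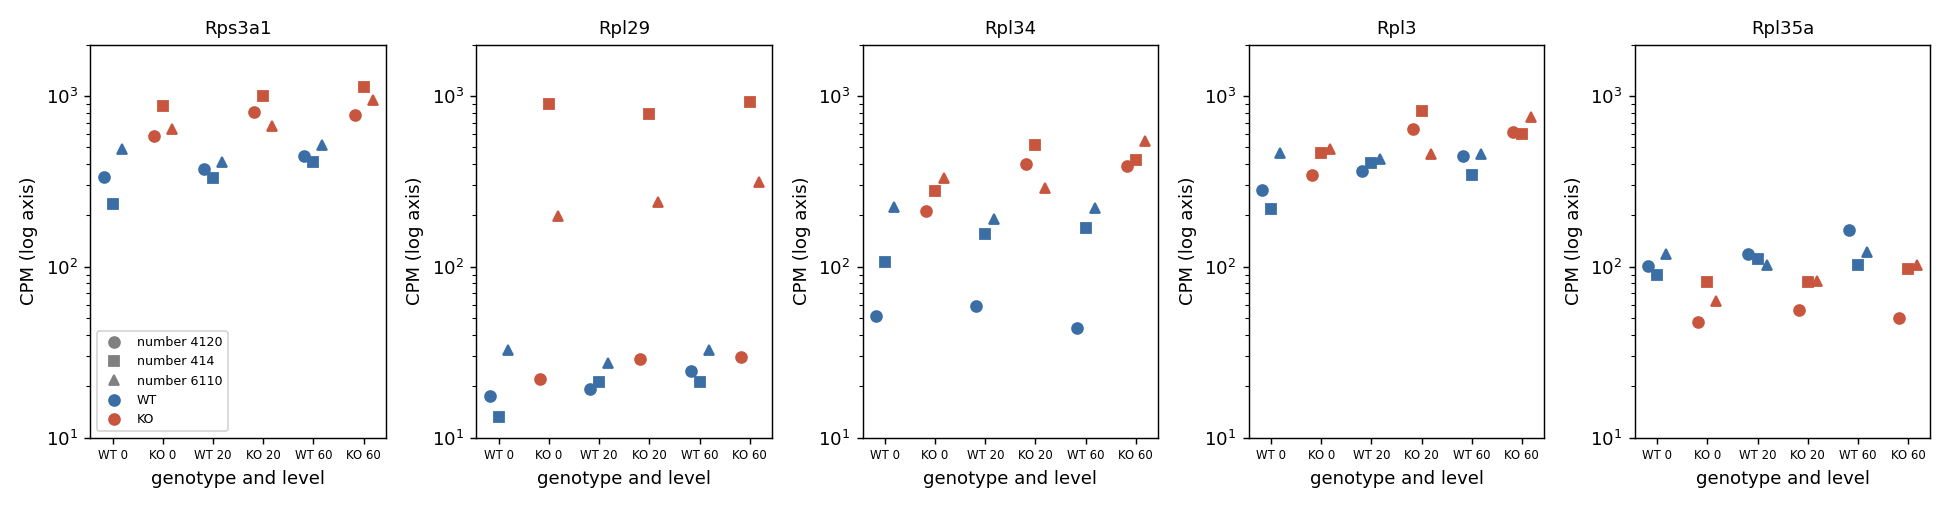
Level in CPM (log axis) of the 5 ribosomal protein genes called between KO and WT over all levels, by genotype and level. Each point is 1 library and its shape gives the replicate number. Rpl29 in KO stood at 789 to 922 CPM in number 414 and at 22.0 to 29.5 CPM in number 4120.

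Processed copies named after 57 of the 88 genes were also measured, 225 in all. Their share of the counts of gene and copies together was highest for Rpl35a (54.1%), Rps2 (47.5%), Rpl30 (26.5%), Rpl3 (25.1%), Rps18 (24.1%), Rps3a1 (19.9%) and Rpl34 (19.0%). Over all levels 122 copies were tested, and edgeR called 6 with higher and 4 with lower counts in KO, against 4.29% and 6.62% of all genes, with a median of 0.20. Those lower were Rps3a3, Rps3a2, Rpl34-ps1 and Rpl34-ps2, which are all copies of genes that were higher in KO.

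The coding sequences of gene and copy are nearly the same. Within them, reads can be told apart only at bases that differ, and parts outside the coding sequence were not compared. Each stretch below is 60 bases of coding sequence in GRCm38, picked for the most differing bases, which capitals mark. Positions count from 1 at the first coding base of the gene. Rps3a1 and Rps3a3 (chromosome 13, 108670603 to 108671397, plus strand) are shown from position 208 to 267, Rpl34 and Rpl34-ps1 (chromosome 6, 71124610 to 71124963, plus strand) from 102 to 161, and Rpl35a and Rpl35a-ps2 (chromosome 1, 181241988 to 181242320, minus strand) from 126 to 185.
Rps3a1: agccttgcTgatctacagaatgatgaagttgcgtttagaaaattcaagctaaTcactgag
Rps3a3: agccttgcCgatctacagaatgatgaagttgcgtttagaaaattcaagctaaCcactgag
Rpl34: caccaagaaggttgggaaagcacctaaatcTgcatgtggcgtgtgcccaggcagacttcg
Rpl34-ps1: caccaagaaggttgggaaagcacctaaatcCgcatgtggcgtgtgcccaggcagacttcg
Rpl35a: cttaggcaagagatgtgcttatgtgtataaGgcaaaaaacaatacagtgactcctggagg
Rpl35a-ps2: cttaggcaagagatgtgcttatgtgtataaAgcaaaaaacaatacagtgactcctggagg

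Over the whole coding sequence Rps3a3 was 98.99% identical to Rps3a1, with 8 mismatches in 791 aligned bases, and Rps3a2 was 99.49% identical, with 4. Rpl34-ps1 was 99.43% identical to Rpl34, with 2 mismatches in 351 bases and an identical run of 185 bases. Rpl35a-ps2, Rpl35a-ps3, Rpl35a-ps4 and Rpl35a-ps6 each had 1 mismatch to Rpl35a in 330 bases. Rpl3-ps1 was 99.83% and Rpl3-ps2 98.84% identical to Rpl3. Rpl29-ps2 was 97.7% identical to Rpl29, with 11 mismatches.

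The Rps3a3 libraries ran from 126 to 348 CPM in WT and from 1.87 to 3.43 CPM in KO, without overlap. Its mean over cultures was 214 CPM in WT and 2.50 CPM in KO, a difference of −6.44 (SE 0.253, adjusted p = 4.63e-10 in edgeR with Benjamini-Hochberg adjustment). Rps3a2 stood at 69.9 CPM in WT and 24.0 CPM in KO (−1.55, adjusted p = 4.24e-05 in edgeR). The sum of Rps3a1 and both copies overlapped between the genotypes at all levels. At 0 it was 526, 451 and 892 CPM in WT and 600.1, 907 and 663 CPM in KO for numbers 4120, 414 and 6110. The difference of the sum over all levels was 0.33 with an adjusted p of 0.190 in edgeR, against 1.06 for Rps3a1 alone.

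Rpl34-ps1, which the annotation lists as protein-coding, ran from 50.8 to 208 CPM in WT and from 0.914 to 2.73 CPM in KO. Number 4120 had the highest Rpl34-ps1 in WT (176, 208 and 190 CPM at 0, 20 and 60) and the lowest Rpl34 there. The sum of gene and copies at 0 was 230 CPM in WT and 214 CPM in KO of number 4120, 158 and 278 CPM in number 414, and 357 and 331 CPM in number 6110. At 60 the sums did not overlap, with 235, 263 and 352 CPM in WT and 393, 426 and 547 CPM in KO. With copies added, the difference over all levels was 0.46 with an adjusted p of 0.0861 in edgeR, against 1.44 for Rpl34 alone.

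The Rpl35a copies were not called. Their differences lay between 0.29 and 0.43 for Rpl35a-ps2, Rpl35a-ps3, Rpl35a-ps4, Rpl35a-ps5 and Rpl35a-ps6, with Rpl35a itself at −0.64. Rpl35a-ps3 at 0 gave 5.23, 13.1 and 54.4 CPM in WT and 25.6, 37.5 and 25.8 CPM in KO for numbers 4120, 414 and 6110, so it was lowest in the WT culture of number 4120 and highest in that of 6110. With the copies added, the Rpl35a difference was −0.10 with an adjusted p of 0.797 in edgeR. The copies of Rpl3 were called and higher in KO, Rpl3-ps1 at 0.62 and Rpl3-ps2 at 0.72, and with copies added Rpl3 was still called. The Rpl29 copies stood at or below 1.95 CPM in every library, so Rpl29 with its copies gave nearly its own values, such as 894 CPM in KO of number 414 at 0. With the named copies added, 3 of 87 genes were called (Rpl29, Rpl3 and Rps3a1), and with the S3A copies Rps3a2 and Rps3a3 added as well, 2 were (Rpl29 and Rpl3). How reads that match both gene and copy were assigned is not given in the sources used here, and its part in these differences was not tested.

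**Figure D5:**
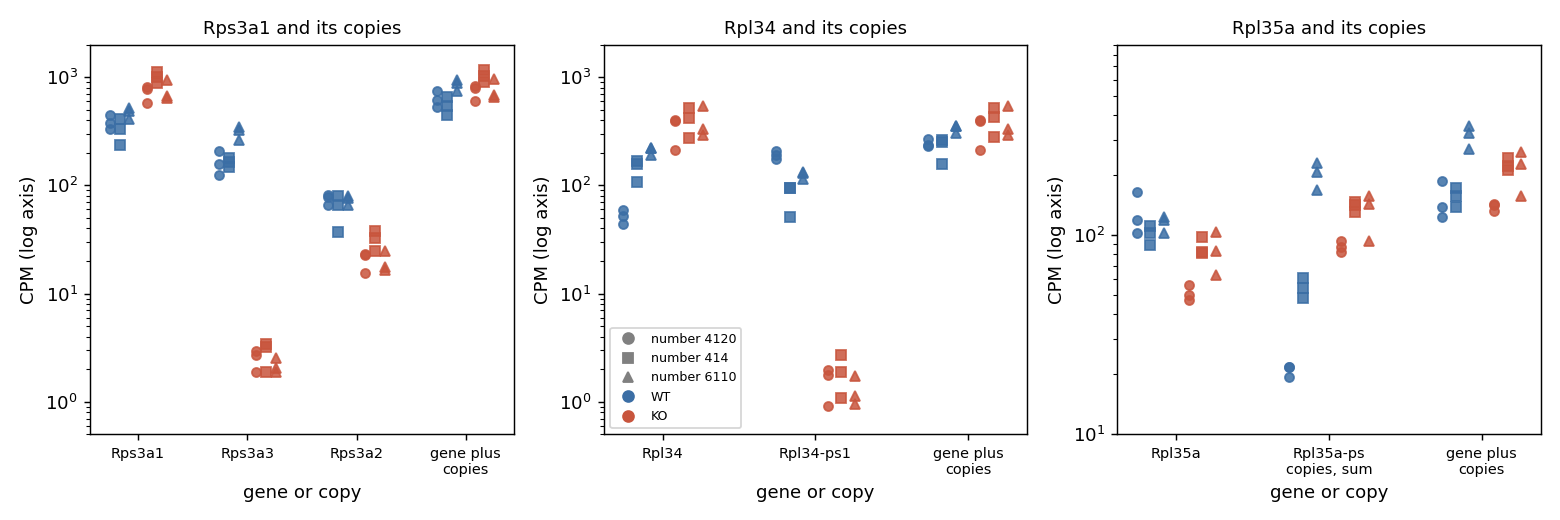
Level in CPM (log axis) of Rps3a1, Rpl34 and Rpl35a, of their copies, and of gene and copies together, for the 9 WT and 9 KO libraries. Each point is 1 library and its shape gives the replicate number. Rps3a3 and Rpl34-ps1 were at most 3.43 and 2.73 CPM in KO, while the sums of gene and copies overlapped between the 9 WT and the 9 KO libraries.

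Of the genes named for the size of their estimate and not called, Rps27rt, a retrotransposed copy of Rps27, and Rps2 of the small subunit had the lowest values after Rpl35a over all levels, at −0.59 (SE 0.562) and −0.35 (SE 0.392). Rps27rt stood at 3.18, 2.56 and 22.4 CPM in the WT cultures of numbers 4120, 414 and 6110 and at 3.93, 5.54 and 9.16 CPM in KO, so its estimate rests on 1 WT culture. Rps2 stood at 123, 401 and 487 CPM in WT and 118, 411 and 271 CPM in KO. Rpl28 was at −0.32 at 20 and Rps19bp1 at −0.27 at 60. Rps18, with 594, 1386 and 537 CPM in the KO cultures and 160, 428 and 716 CPM in WT, had an estimate of 0.94 (SE 0.392, adjusted p = 0.122 in edgeR), and 1.08 with the replicate block (adjusted p = 0.0240).

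The stalk proteins and Rpsa were not called in edgeR over all levels. DESeq2 called Rplp0, and the replicate block called Rplp0 and Rplp2. Without the WT library of number 6110 at 0, Rplp0, Rplp1, Rplp2 and Rpsa were all called. Rplp0, the base of the stalk, had an estimate of 0.53 (SE 0.169, adjusted p = 0.0555 in edgeR with Benjamini-Hochberg adjustment), from 1145 CPM in WT on average over cultures. WT gave 1026 ± 456 CPM at 0 and 1249 ± 247 CPM at 60, within the spread between libraries, and KO gave 1378 ± 233 CPM at 0 and 1959 ± 158 CPM at 60 (SD, n = 3). Rplp1 had an estimate of 0.55 (adjusted p = 0.153 in edgeR), Rplp2 of 0.56 (adjusted p = 0.168) and Rpsa, the laminin receptor homolog of the small subunit, of 0.37 (adjusted p = 0.157).

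Within a genotype, no ribosomal protein gene passed the test between levels. The comparisons of 20 and of 60 with 0 share the libraries at 0. In edgeR 0 of 87 were called in WT at 20 (0.6% of all genes), WT at 60 (0.221%), KO at 20 (0.449%) and KO at 60 (2.54%), and DESeq2 also called 0 in each. At an unadjusted p under 0.05 there were 2, 0, 1 and 4 genes, against 5.77%, 7.94%, 3.23% and 14.2% of all genes. The median estimates were −0.0031, 0.25, 0.20 and 0.35 on the log2 scale, with 41, 86, 71 and 85 of 87 above 0, against 47.2%, 47.8%, 45.8% and 50.1% of all genes. On TPM (pseudocount 0.1) the medians were 0.16, 0.19, 0.24 and 0.087, with 77, 84, 73 and 59 above 0, and with library size alone they were −0.016, 0.16, 0.23 and 0.14, with 39, 76, 74 and 66 above 0. The median of all genes in KO at 60 was −0.25 on TPM and −0.22 with library size alone. The medians of all genes were −0.023, −0.021, −0.028 and 0.0011. In KO at 60, 18 genes (20.7%) stood above all libraries at 0, against 9.18% of all genes. In the other comparisons the genes above all libraries at 0 were Rpl6, Rps23 and Rpl22l1 in KO at 20 and Rps19 in WT at 60. In WT at 20 only Rps19bp1 was apart, with lower values than at 0. The shares of all genes are not given for these comparisons, so these genes cannot be read as few or many.

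These medians also depended on the number. In WT at 20 the median of the 87 genes against 0 was 0.27 in number 4120, 0.29 in number 414 and −0.28 in number 6110, where 2 of 87 were above 0. At 60 it was 0.49, 0.30 and 0.042 in WT. The KO cultures had 0.26, 0.18 and 0.27 at 20 and 0.27, 0.16 and 0.68 at 60, so all 6 KO medians were above 0. Without the WT library of number 6110 at 0 the WT medians were 0.50 at 20 and 0.69 at 60. The WT median at 60 was −0.028 without the library of number 6110 at 60 and 0.038 without that of number 414 at 0, and the KO median at 20 was 0.046 without the library of number 414 at 20.

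None of the estimates that were highest or lowest was called. In WT the highest were Rpl22l1 (0.67, SE 0.315), Rps27a (0.36) and Rpl3 (0.31) at 20, and Rpl22l1 (0.53), Rps27a (0.48) and Rpl4 (0.46) at 60. Rps27a encodes a small subunit protein that is made as a fusion with ubiquitin. The highest in KO were Rps27a (0.82, SE 0.363), Rps21 (0.62) and Rps23 (0.61) at 20, and Rps27a (0.78), Rpl34 (0.73) and Rpl36al (0.68) at 60. Rps27a stood at 306 ± 55.9, 540 ± 202 and 526 ± 56.3 CPM in KO at 0, 20 and 60 (SD, n = 3). The lowest were Rps19bp1 (−0.54), Rpl14 (−0.24) and Rpl21 (−0.21) in WT at 20 and Rplp1 (−0.034), Rps12 (0.0038) and Rps24 (0.042) in WT at 60. In KO they were Rpl14 (−0.36), Rpl35 (−0.21) and Rpl27 (−0.20) at 20, and Rpl27 (0.044) and Rpl17 (0.096) were among the lowest at 60.

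The difference between the genotypes in their response to level was called for 0 of 87 genes at 20 and at 60, as for 0% of all genes in edgeR, and DESeq2 called 0 of 87. There was no ribosomal protein gene at an unadjusted p under 0.05 (0.396% and 1.1% of all genes). The median estimates were 0.23 at 20 and 0.11 at 60, and without the WT library of number 6110 at 0 they were −0.25 and −0.35. At 60 the median was −0.094 on TPM, with 17 of 87 above 0, and −0.021 with library size alone, with 42 above 0, against 67 above. The medians of all genes were −0.16, −0.12 and 0.020 in these 3 scalings. The highest were Rps27rt (0.51), Rps21 (0.49) and Rpl34 (0.48) at 20 and Rpl34 (0.55), Rpl41 (0.40) and Rplp2 (0.34) at 60. The lowest were Rpl22l1 (−0.28), Rpl29 (−0.17) and Rpl14 (−0.12) at 20 and Rpl23a (−0.15), Rpl29 (−0.13) and Rpl27 (−0.12) at 60.

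Genes that serve the ribosome without the names used here were read beside these. Fau, which encodes a small subunit protein fused to a ubiquitin-like protein, was not called over all levels, with 0.34 (adjusted p = 0.175 in edgeR). Of 37 translation factors, 5 were higher in KO over all levels and 0 lower, against 4.29% and 6.62% of all genes, with a median of 0.25, beside 0.29 for the ribosomal protein genes. Among them Pabpc1, which binds poly(A) tails, was at 287 ± 33.5 CPM in WT and 485 ± 94.6 CPM in KO (SD, n = 3 cultures; 0.76, adjusted p = 0.0075 in edgeR), and Eef2, which moves the ribosome along the messenger RNA, differed by 0.48 (adjusted p = 0.0439). Btf3 was at 0.61 and Eif5a at 0.55, both called.

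Of 72 ribosome assembly genes, 4 were lower and 0 higher in KO over all levels, against 6.62% and 4.29% of all genes, with a median of −0.13. They were Gnl2 (−0.85), Polr1b, a subunit of RNA polymerase I (−0.59), Mybbp1a (−0.55) and Noc4l (−0.32). Of 78 genes for the proteins of the mitochondrial ribosome, 3 were higher and 2 lower, against the same shares of all genes, with a median of 0.053, and the largest was Mrpl24 at −0.82 (adjusted p = 0.0079 in edgeR with Benjamini-Hochberg adjustment).

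In KO at 60 against 0, where no ribosomal protein gene was called, the assembly genes Fbl, which methylates ribosomal RNA (1.40), and Ddx21 (1.31) were higher and Polr1b was lower (−1.17). The translation factors Eif4e, which binds the cap (1.82), Eif4a1 (1.05) and Eif3a (0.81) were higher, 3 of 37. Of the 72 assembly genes, 2 were called higher and 1 lower. Among all 17159 genes 341 were higher and 95 lower, 2.54% in both directions together. Myc was higher by 2.09 (adjusted p = 0.0445 in edgeR with Benjamini-Hochberg adjustment) and Mycn by 2.12. In WT at 60 against 0, Mycn was also called (1.76, adjusted p = 0.0228 in edgeR), and Myc was at 1.66 (adjusted p = 0.275). The WT means of the 6 other genes named here moved in the same directions without a call, such as Eif4e from 14.2 to 35.8 CPM. No gene was called for the difference between genotypes in response at 60. Between the genotypes over all levels Myc differed by −0.076 (adjusted p = 0.882 in edgeR), at 30.1 ± 13.2 CPM in WT and 30.1 ± 5.70 CPM in KO (SD, n = 3 cultures).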

How the data were processed

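The 18 libraries were grouped by genotype and level, per the labels. HISAT2 2.1.0, StringTie 2.1.3b, bcl2fastq 2.20.0, FastQC 0.11.7 and the build mm10 stand in the submitters' processing notes. The annotation and strand were not given in the sources used here. The authors deposited read counts per gene without normalization, and TPM values, per the file headers; the deposited FPKM values were not used. The members and the gene lists were chosen with earlier results of these data known.

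Counts were fitted with edgeR 4.0.16 (R 4.3.3): filterByExpr, TMM, a quasi-likelihood fit of 6 group means to 18 libraries, and Benjamini-Hochberg adjustment over 17159 genes, with 0.05 as the threshold, in 10 comparisons. Single genes had exact permutation tests of log2(CPM + 0.1), two-sided. TPM served for levels between genes. Members named are all those called, the 3 highest and 3 lowest estimates per comparison with at least 5 CPM in a group, the 5 highest and 5 lowest in TPM, those that failed the filter, close paralogs, the stalk proteins and Rpsa. Of other lists, at most 4 called genes are named. Some genes these rules name are not reported here.

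Alternatives were DESeq2 1.42.0, limma 3.58.1 (voom with the culture as a random effect, and log2 TPM with pseudocounts 0.1 and 1), other scalings, no filter, the compared groups alone, the replicate block, copies added to their gene, the mitochondrial share as a covariate, sums per culture, and each library left out. Adding the S3A copies, and leaving out both genotypes of a number, were chosen after seeing the data, as were the promoter motifs. Numbers were taken to pair samples where all 3 correlations of deviations were above 0.1: 0.43 to 0.53 between genotypes at 60, 0.62 to 0.76 for level 20 in WT, and in KO 0.40 to 0.58 for level 20 and 0.33 to 0.67 for level 60. No libraries of a group were copies (chi-square per gene 82.0 to 846). Promoters are those of RefSeq (GRCm38.p6), copies were aligned with Biopython 1.88 on GENCODE M21 (GRCm38), and figures drawn with matplotlib 3.10.9. Tested on simulated data for KO against WT at 0 over 17159 genes, the fit recovered 34.0% of 106 genes changed 2-fold and 86.2% of 94 changed 4-fold. The simulated libraries were independent, while the correlation within a culture was 0.447 in the data (voom), so these shares may not hold here.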

Additional observations from a re-analysis of the deposited data

How the results depend on the processing

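Over all levels edgeR called 5 of 87 genes. DESeq2 called 16, the replicate block 17, limma-voom with the culture as a random effect 1, TPM with either pseudocount 3, counts with named copies added 3, with the S3A copies added as well 2, the mitochondrial share as a covariate 3 and sums per culture 0. With 1 library or 1 number left out, the count ran from 1 to 35: it was 32 without the WT library of number 6110 at 0, 3 without number 4120, 8 without the WT library of number 6110 at 60, 10 without the KO library of number 6110 at 20 and 9 without the KO library of number 4120 at 0. Fewer samples enter the fits per number and per culture, and the cause of the other changes was not tested. At single levels DESeq2 called 2, 1 and 2 genes at 0, 20 and 60, and with libraries or numbers left out edgeR called 0 to 1 at 0, Rps27l without number 6110. The replicate block changed no other count of calls; the numbers paired the samples in 4 of the comparisons only.

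With libraries or numbers left out, the median of the 87 genes ran from −0.21 to 0.69 for KO against WT at 0, from 0.11 to 0.72 at 20, from 0.027 to 0.58 at 60, from −0.19 to 0.50 for WT 20, from −0.028 to 0.69 for WT 60, from 0.046 to 0.43 for KO 20, from 0.22 to 0.56 for KO 60, from −0.056 to 0.68 for KO against WT over all levels, from −0.25 to 0.42 for the difference in response at 20 and from −0.35 to 0.40 for that at 60. As summed TPM, the ribosomal share was 9.75%, 10.2% and 10.5% in WT and 12.6%, 15.2% and 13.4% in KO at 0, 20 and 60. Without mitochondrial genes in the total it was 5.45%, 5.22% and 6.00% in WT and 6.36%, 6.80% and 7.0% in KO, so the order of 20 and 60 in KO turned.

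None of the 5 called estimates, which are those over all levels, changed sign in 170 values, of which 132 passed the threshold. Of 1541 values of 64 estimates named without a call, 105 changed sign and 25 passed: 7 by DESeq2, 4 with the replicate block and the others with libraries or a number left out. On TPM with a pseudocount of 0.1 those that changed were Rps27rt for KO against WT at 0 (0.31), at 60 (0.11) and over all levels (0.25), Rplp1 (0.035) and Rps24 (−0.016) in WT at 60, Rpl27 (−0.21) and Rpl17 (−0.10) in KO at 60, and Rplp2 (−0.075) for the difference in response at 60. With a pseudocount of 1 the same estimates were 0.26, 0.068, 0.21, 0.035, −0.016, −0.21, −0.10 and −0.075. With the replicate block they were Rps27rt at 0 (0.099) and over all levels (0.0061), Rplp1 in WT at 60 (0.078) and Rpl27 in KO at 60 (−0.018). With named copies added they were Rps2 at 0 (0.00077) and over all levels (0.090) and Rpl35a at 20 (0.0026), and with the S3A copies as well Rps2 (0.00082 and 0.090) and Rpl35a (0.0026). With library size alone they were Rps12 (−0.10) and Rps24 (−0.054) in WT at 60 and Rpl27 (−0.19) and Rpl17 (−0.12) in KO at 60. With the culture as a random effect they were Rplp1 in WT at 60 (0.15) and Rpl29 for the difference at 60 (0.0011). With the mitochondrial share they were Rpl14 (0.0099) and Rpl35 (0.16) in KO at 20 and Rpl29 (0.20) and Rpl14 (0.14) for the difference at 20.

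With libraries or numbers left out, Rps27rt ran from −1.24 to 1.08 for KO against WT at 0, from −1.38 to 1.28 at 60 and from −0.96 to 0.73 over all levels. Rps2 ran from −0.80 to 0.12 at 0 and from −0.65 to 0.013 over all levels, and Rpl28 from −0.58 to 0.032 at 20. In WT at 60 Rplp1 ran from −0.43 to 0.57, Rps12 from −0.48 to 0.77 and Rps24 from −0.21 to 0.40. In KO at 20 Rpl14 ran from −0.68 to 0.13, Rpl35 from −0.52 to 0.32 and Rpl27 from −0.45 to 0.18. In KO at 60 Rpl27 ran from −0.26 to 0.41 and Rpl17 from −0.19 to 0.49. For the difference at 20 Rps27rt ran from −1.32 to 1.76, Rpl34 from −0.21 to 0.86, Rpl22l1 from −0.75 to 0.019, Rpl29 from −1.56 to 1.56 and Rpl14 from −0.45 to 0.36. For that at 60 Rpl34 ran from −0.14 to 1.01, Rplp2 from −0.46 to 0.63, Rpl23a from −0.75 to 0.21, Rpl29 from −1.44 to 1.60 and Rpl27 from −0.65 to 0.33. Genes near 0.185 CPM, such as Rpl3l and Rpl39l, are at the limit that the depth allows.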
